A study of Drosophila melanogaster with 24 samples.

Results

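The transcripts of 10 genes of asymmetric cell division (numb, insc, pins, mira, pros, baz, aPKC, par-6, spdo and brat) were measured in mesodermal cells of Drosophila melanogaster embryos of 6 genotypes. The genes were found by their symbols in the deposited count table, which lists 17476 genes, and each symbol matched 1 row. The study asked which genes the Fox transcription factor Jumeau (Jumu) regulates in the mesoderm that gives rise to the heart, and it sequenced total RNA of cells sorted by their GFP fluorescence, with 4 replicates per genotype and 24 samples in all. The study's methods call the wild-type and jumu loss-of-function samples biological replicates, and where nothing says this of the others, p-values measure only the spread between these samples, which may be technical. Every genotype carried the driver twi-GAL4, which is active throughout the mesoderm, and the reporter UAS-2EGFP, and embryos were aged at 25 °C to stage 11 or early stage 12. Wild-type cells came from twi-GAL4 UAS-2EGFP/+ embryos. The jumu loss-of-function embryos carried Df(3R)Exel6157, a deficiency (a lost stretch of chromosome) that takes out jumu, on both homologs, one with twi-GAL4 and the other with UAS-2EGFP. CHES-1-like loss-of-function cells came from Df(1)CHES-1-like1 embryos with twi-GAL4 UAS-2EGFP/+, and double loss-of-function cells carried the deficiencies of both Fox genes. For overexpression, twi-GAL4 drove UAS-jumu or UAS-CHES-1-like in the same cells that it marked with GFP, so the added Fox protein was limited to cells with the driver.

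In an asymmetric division the mother cell places fate determinants at one side of its cortex and turns its spindle so that the determinants reach a single daughter. An apical complex of Baz, Par-6 and aPKC sets the axis, Insc and Pins join that complex to the spindle, Mira carries Pros and Brat to the opposite side, and Numb segregates with them and blocks Notch signalling, which Spdo promotes in the other daughter. These genes are best known from neuroblasts, and the progenitors of body wall muscles and of the heart also divide asymmetrically with Numb.

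Samples held total counts of 15197022 to 72519855. Levels are given in CPM, counts scaled to a library of 1000000, adjusted with TMM factors over all 24 samples, and at these depths 3 counts corresponded to at most 0.292 CPM in a sample. In every sample the targeted gene differed from wild-type in the direction of its label. The level of jumu was at 122 ± 3.50 CPM (n = 4, SD) in wild-type, at 24.4% of that level in jumu loss-of-function, 17.9% in double loss-of-function and 553% in jumu overexpression, so jumu RNA was reduced and not absent in the cells with its deficiency, although the study's methods describe all of jumu as deleted. The source of the remaining RNA was not tested. CHES-1-like was at 156 ± 3.41 CPM (n = 4, SD) in wild-type, at 0.734% in CHES-1-like loss-of-function, 0.772% in double loss-of-function and 983% in CHES-1-like overexpression. All 10 mesodermal markers (such as Mef2, sns and how) were detected in every genotype, and their summed level had group means from 1561 CPM in double loss-of-function to 2020.4 CPM in wild-type. The 12 neural markers, among them elav, ase and wor, were not at 0 in any genotype either, with sums of 522–569 CPM in wild-type, 507–619 CPM in jumu loss-of-function, 467–549.5 CPM in CHES-1-like loss-of-function, 444–781 CPM in double loss-of-function, 475–641 CPM in jumu overexpression and 400.0–643 CPM in CHES-1-like overexpression. In RNA of sorted cells in bulk, fewer cells that express a gene and less of its RNA per cell cannot be told apart. Double loss-of-function replicate 2 stood apart from its group, with a median absolute distance over genes of 0.431 in log2 CPM from the mean of the other 3 samples, CHES-1-like overexpression replicate 1 stood at 0.328 and jumu overexpression replicate 1 at 0.259, while the other 21 samples lay between 0.0890 and 0.226. Where leaving out 1 of these samples changed a call of a member, the value without it is also given. Marker sums and correlations are given with all samples only.

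The gene baz was the member whose level differed most between genotypes. Its highest group mean was 5.14 times its lowest, a ratio at the 89.5th percentile of the 12234 genes kept after the 30% with the lowest expression were excluded. For the other 9 members the same ratio ran from 1.15 for par-6 to 1.76 for brat, and the median over the 10 members was 1.43, beside 1.91 over all genes kept. All 10 members passed the filter on low expression in each fit. In a single test of any difference among the 6 genotypes, 6 of the 10 members (aPKC, baz, brat, insc, numb and pros) had a false discovery rate (FDR, the p-value of edgeR's quasi-likelihood test after Benjamini-Hochberg correction across all genes) below 0.1 with a fitted range above 0.5 on the log2 scale, and the same criteria were met by 66.7% of all genes kept. For a comparison of 2 genotypes, a gene was called where its FDR was below 0.1 and its log2 fold change was beyond 0.5 or −0.5.

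Against wild-type, baz was called in 4 of the 5 other genotypes, and no other member was called in any of them. In jumu loss-of-function 1 of the 10 members was called, beside 19.4% of all genes, and baz was the member, higher by 0.85 on the log2 scale. In CHES-1-like loss-of-function 0 of 10 were called by edgeR, beside 15.4% of all genes. There, DESeq2 called 0. An unadjusted edgeR p under 0.05 was reached by 7 members. The share of all genes at that limit is not given, so this count is no result about the members. With library totals in place of TMM factors, 7 of 10 were called there, and the calls over all genes rose as well, as given with the processing. Ribosomal RNA genes took 29.0–32.6% of the counts in that genotype, beside 20.5–22.9% in wild-type, 23.3–24.3% in jumu loss-of-function, 17.8–20.2% in double loss-of-function, 14.3–26.7% in jumu overexpression and 19.5–26.6% in CHES-1-like overexpression. In double loss-of-function 1 of 10 was called, beside 24.7% of all genes, in jumu overexpression 1 of 10, beside 15.7%, and in CHES-1-like overexpression 1 of 10, beside 33.1%, and in each of these baz was lower. Whatever the fold, an FDR below 0.1 was reached by 4 of the 10 members in jumu loss-of-function (all genes 43.8%), 6 in CHES-1-like loss-of-function (36.3%), 3 in double loss-of-function (37.9%), 3 in jumu overexpression (30.1%) and 7 in CHES-1-like overexpression (52.8%). The 4 samples of the genotype lay wholly above or wholly below the 4 wild-type samples for 5 members in jumu loss-of-function (all genes 36.5%), 5 in CHES-1-like loss-of-function (30.2%), 4 in double loss-of-function (37.2%), 4 in jumu overexpression (28.6%) and 8 in CHES-1-like overexpression (45.3%). The members thus differed from wild-type mostly by less than the fold criterion asked. The median absolute log2 fold change of the 10 members was 0.09 in jumu loss-of-function, 0.17 in CHES-1-like loss-of-function, 0.19 in double loss-of-function, 0.08 in jumu overexpression and 0.36 in CHES-1-like overexpression, and over all genes kept it was 0.24, 0.24, 0.32, 0.24 and 0.40. Without CHES-1-like overexpression replicate 1, brat, numb and pros were called lower there as well, which made 4 members. The share of all genes called without that sample is not given, so this count is no result about the members. These 5 comparisons share the 4 wild-type samples and are not independent of each other. All fold changes are relative to the TMM scaling. With library totals in its place, the median log2 fold change of all genes kept was −0.18 in jumu loss-of-function, −0.56 in CHES-1-like loss-of-function, 0.34 in double loss-of-function, 0.04 in jumu overexpression and −0.05 in CHES-1-like overexpression.

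**Figure D1:**
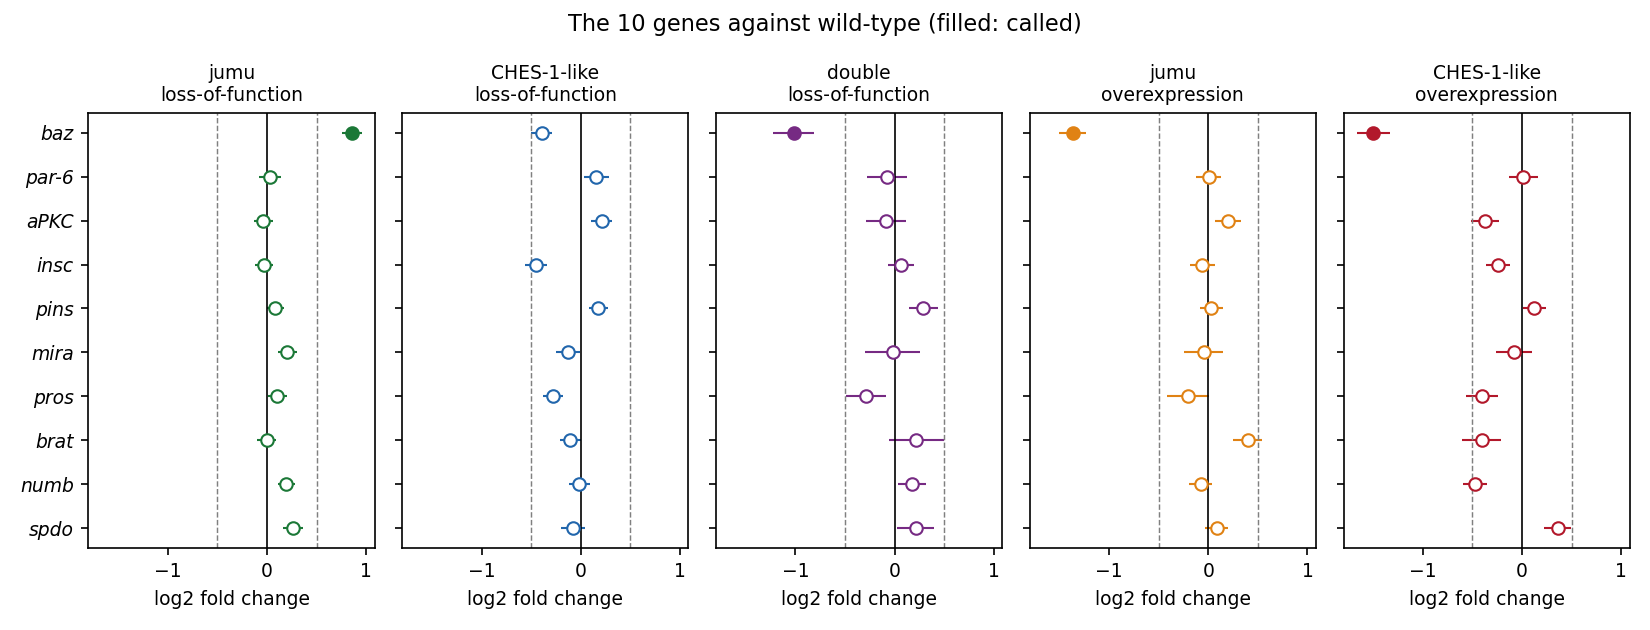
Log2 fold change (x axis) of each of the 10 asymmetric division genes (y axis) in the 5 other genotypes against wild-type, fitted by edgeR on 4 samples against 4. Bars are 95% intervals from the standard error, filled points were called, and dashed lines mark 0.5 and −0.5. The points of baz lie at 0.85, −0.39, −1.02, −1.37 and −1.50, and all other points lie between the dashed lines.

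baz, which encodes the Par-3 scaffold of the apical complex and is also needed at epithelial junctions, lies on chromosome X, bases 17160006 to 17200728 (plus strand) in Release 6 of the genome, and its annotated exons cover 10881 bases. Its exons share 3 bases with the gene TTLL1A on the opposite strand and 56 with an annotated copy of the transposable element flea. In wild-type its levels were 636, 592, 604 and 611 CPM in replicates 1 to 4, and in jumu loss-of-function they were 1182, 1053, 1049.6 and 1096 CPM. Every sample of that loss lay far above all wild-type samples. In CHES-1-like loss-of-function the levels were 474, 467, 456 and 441 CPM, and in double loss-of-function they were 284, 369.9, 276 and 271 CPM. Both groups lay wholly below wild-type and did not overlap each other, even with replicate 2 of the double loss, which was the highest of its group. Under overexpression of jumu the levels were 243, 237, 228 and 234 CPM, and under overexpression of CHES-1-like they were 244, 209, 195 and 204 CPM. The overexpression groups were the lowest of all, and they overlapped each other.

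**Figure D2:**
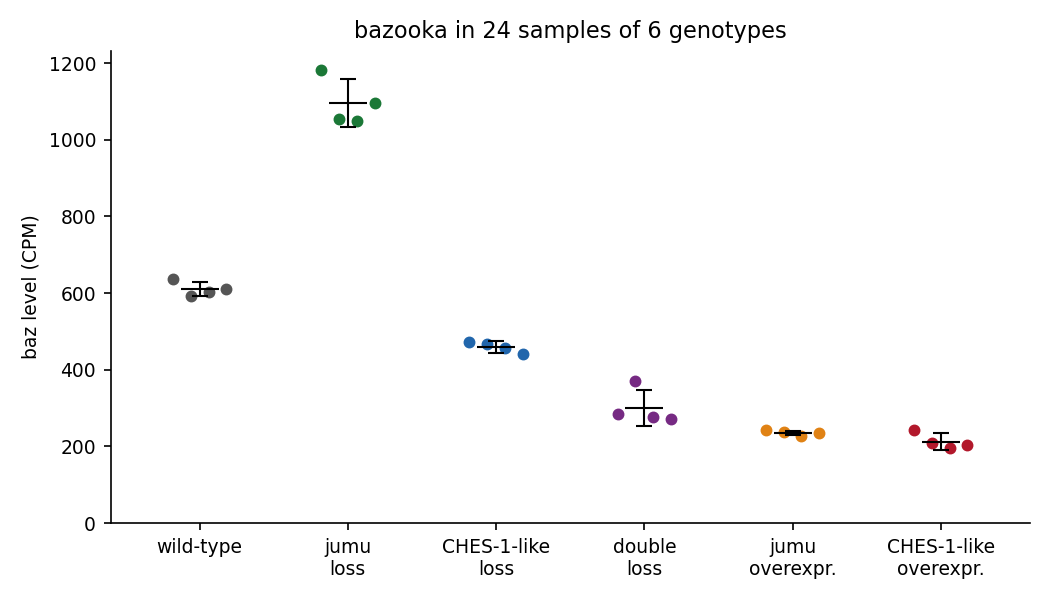
Level of baz in CPM (y axis, linear from 0) in each of the 24 samples by genotype (x axis), with the mean and the SD of 4 samples as bars. The group means fall from 1095 CPM in jumu loss-of-function to 213 CPM in CHES-1-like overexpression, and only the overexpression groups overlap.

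By group mean, baz was at 611 ± 18.6 CPM (n = 4, SD) in wild-type, 1095 ± 61.9 CPM (n = 4, SD) in jumu loss-of-function (179% of wild-type), 459 ± 14.5 CPM (n = 4, SD) in CHES-1-like loss-of-function (75.2%), 300.5 ± 46.6 CPM (n = 4, SD) in double loss-of-function (49.2%), 235 ± 6.22 CPM (n = 4, SD) in jumu overexpression (38.5%) and 213 ± 21.4 CPM (n = 4, SD) in CHES-1-like overexpression (34.9%). Its level therefore ran opposite to that of jumu across jumu loss-of-function, wild-type and jumu overexpression. It did not do so in double loss-of-function, where jumu was at 17.9% of wild-type and baz was also below wild-type, at 49.2%. For CHES-1-like, baz was below wild-type both without the gene and with more of it. Against wild-type, the log2 fold change was 0.85 ± 0.051 (SE, edgeR FDR = 1.2e-11) in jumu loss-of-function. It was −0.39 ± 0.055 (SE, edgeR FDR = 5.6e-06) in CHES-1-like loss-of-function, which passed the FDR criterion and not the fold criterion. Double loss-of-function gave −1.02 ± 0.11 (SE, edgeR FDR = 3.8e-05), jumu overexpression −1.37 ± 0.069 (SE, edgeR FDR = 1.8e-09) and CHES-1-like overexpression −1.50 ± 0.086 (SE, edgeR FDR = 1.4e-08). Without replicate 2, double loss-of-function had 277 ± 6.65 CPM (n = 3, SD). Baz is also an epithelial protein, and the summed level of the 7 epithelial markers (crb, sdt, grh, shg, cora, Nrx-IV and kune, none of them at 0) had group means of 621, 560.0, 601, 512, 545 and 423 CPM in the same order of genotypes, and its samples lay at 612–627 in wild-type, 546–587 in jumu loss-of-function, 588–624 in CHES-1-like loss-of-function, 486–581 in double loss-of-function, 516–603 in jumu overexpression and 398–459.8 in CHES-1-like overexpression. The mean sum was below wild-type in all 5 altered genotypes and lowest in CHES-1-like overexpression, which also had the least baz. The orders differed elsewhere: jumu loss-of-function had a sum below wild-type and the most baz. Double loss-of-function had a lower sum than jumu overexpression but more baz. In jumu overexpression 1 of the 7 epithelial markers was called lower, 2 of the 3 endodermal markers were called higher and 1 lower (sum 46.0 CPM, beside 30.2 CPM in wild-type), and of the 5 hemocyte markers 1 was called higher and 2 lower (sum 652 CPM, beside 811 CPM). In that comparison 15.7% of all genes were called in either direction. The part of these cell types in the differences of baz was not tested.

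Between the altered genotypes, baz was again called each time. In double against jumu loss-of-function, where 1 of the 10 members was called beside 9.42% of all genes, its log2 fold change was −1.87 ± 0.11 (SE, edgeR FDR = 2.0e-06), and without double loss-of-function replicate 2 pros was called lower too. In double against CHES-1-like loss-of-function, 2 of 10 were called beside 20.7% of all genes, insc higher and baz lower, with baz at −0.61 ± 0.11 (SE, edgeR FDR = 0.0019), but with library totals in place of TMM factors the value of baz was 0.24, where that scaling put the median of all genes at 0.90. In jumu overexpression against jumu loss-of-function, 1 of 10 was called beside 20.7%, baz at −2.22 ± 0.084 (SE, edgeR FDR = 5.8e-12). In CHES-1-like overexpression against CHES-1-like loss-of-function, 2 of 10 were called beside 40.7%, baz at −1.14 ± 0.089 (SE, edgeR FDR = 4.4e-08) and aPKC, both lower.

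The interaction of the losses, tested with the 16 samples that were wild-type or carried either deficiency or both, asked whether the double loss equalled the sum of the single losses on the log2 scale. It was called for 2 of the 10 members, baz and insc, beside 12.2% of all genes. For baz the single losses added up to 0.43 in log2 CPM, which would put the double loss at 823 CPM, whereas 300.5 CPM was measured. The interaction was −1.48 ± 0.12 (SE, edgeR FDR = 4.8e-08). With library totals it was −0.44, short of the fold criterion, where the median of all genes was at 1.08. The part of the X chromosomes of the strains in this value was not tested. For insc the single losses added up to −0.51 in log2 CPM, or 31.2 CPM, against 46.1 CPM measured. The interaction of insc was 0.54 ± 0.078 (SE, edgeR FDR = 7.4e-05). It stayed positive under every alternative tried, but library totals put the median of all genes at 1.08. A change of filter or of limits leaves the value as it was, so the sign could not turn there. The other 8 members had interaction values between −0.25 for aPKC and 0.33 for brat, with edgeR FDR values of 0.23 or more.

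**Figure D3:**
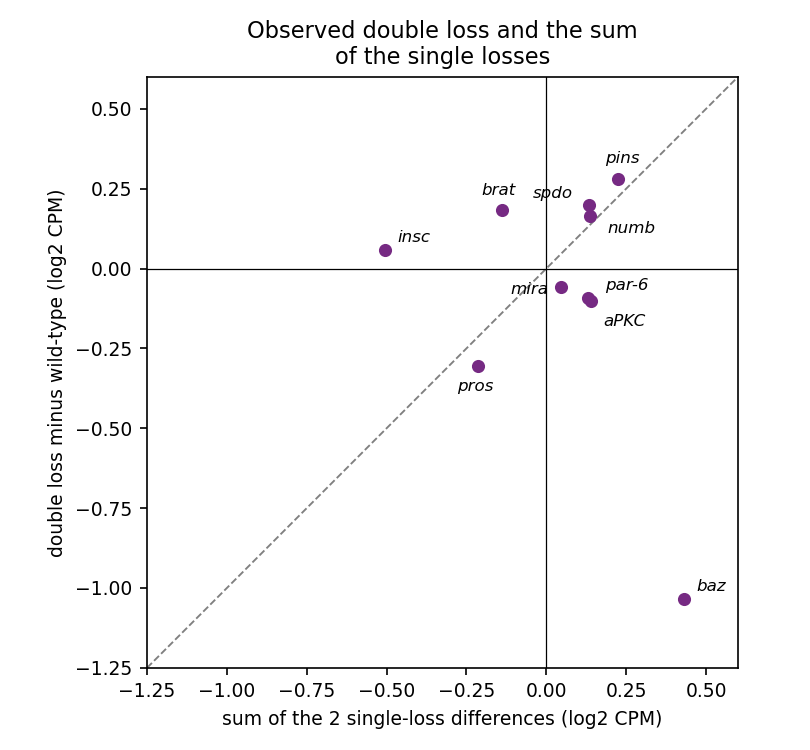
Measured difference of double loss-of-function from wild-type in mean log2 CPM (y axis) against the sum of the differences of the single losses (x axis) for the 10 genes, each a point from means of 4 samples per genotype. On the dashed line the double loss equals the sum. baz lies at 0.43 on the x axis and −1.04 on the y axis, and insc at −0.51 and 0.06.

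The genes beside baz on the chromosome were examined after its values had been seen. Within 80 kb downstream of baz, 5 of the 7 genes kept in jumu loss-of-function were called higher, beside 9.83% of all genes called higher in that comparison. On the upstream side 0 of 9 were called higher and 2 lower, beside 9.54% of all genes called lower. TTLL1A, which overlaps the end of baz on the opposite strand, was at 0.568 ± 0.246 (n = 4, SD) CPM in wild-type against 3.91 ± 0.751 (n = 4, SD) CPM in jumu loss-of-function (log2 fold change 2.64 ± 0.22 SE, edgeR FDR = 3.6e-09). CG5070, which starts 2.38 kb farther on, was at 0.146 ± 0.101 (n = 4, SD) and 1.06 ± 0.389 (n = 4, SD) CPM (log2 fold change 2.87 ± 0.41 SE, edgeR FDR = 1.0e-05). CG32564, at 5.68 kb, had 0 to 3 counts per sample of wild-type but 93 and 401 counts in the lowest and the highest jumu loss-of-function sample, a mean of 6.11 ± 0.721 (n = 4, SD) CPM, and the samples of the other 4 genotypes had at most 5. The gene f (forked, an actin bundling protein), at 32.2 kb, rose from 0.944 ± 0.209 (n = 4, SD) to 6.07 ± 0.827 (n = 4, SD) CPM (log2 fold change 2.64 ± 0.15 SE, edgeR FDR = 6.1e-12). These 4 neighbours were not called higher in the other genotypes, where the means of TTLL1A were 0.505, 0.624, 0.735 and 0.394 CPM in CHES-1-like loss-of-function, double loss-of-function, jumu overexpression and CHES-1-like overexpression, and those of f were 1.14, 1.08, 0.533 and 0.712 CPM. The fifth, CG42854 at 44.6 kb, was called higher in all 5 genotypes. Whether the counting used the strand is not given in the sources used here, so reads of baz and TTLL1A within the shared bases cannot be told apart. Whether the X chromosomes of the strains differ near baz was not tested.

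**Figure D4:**
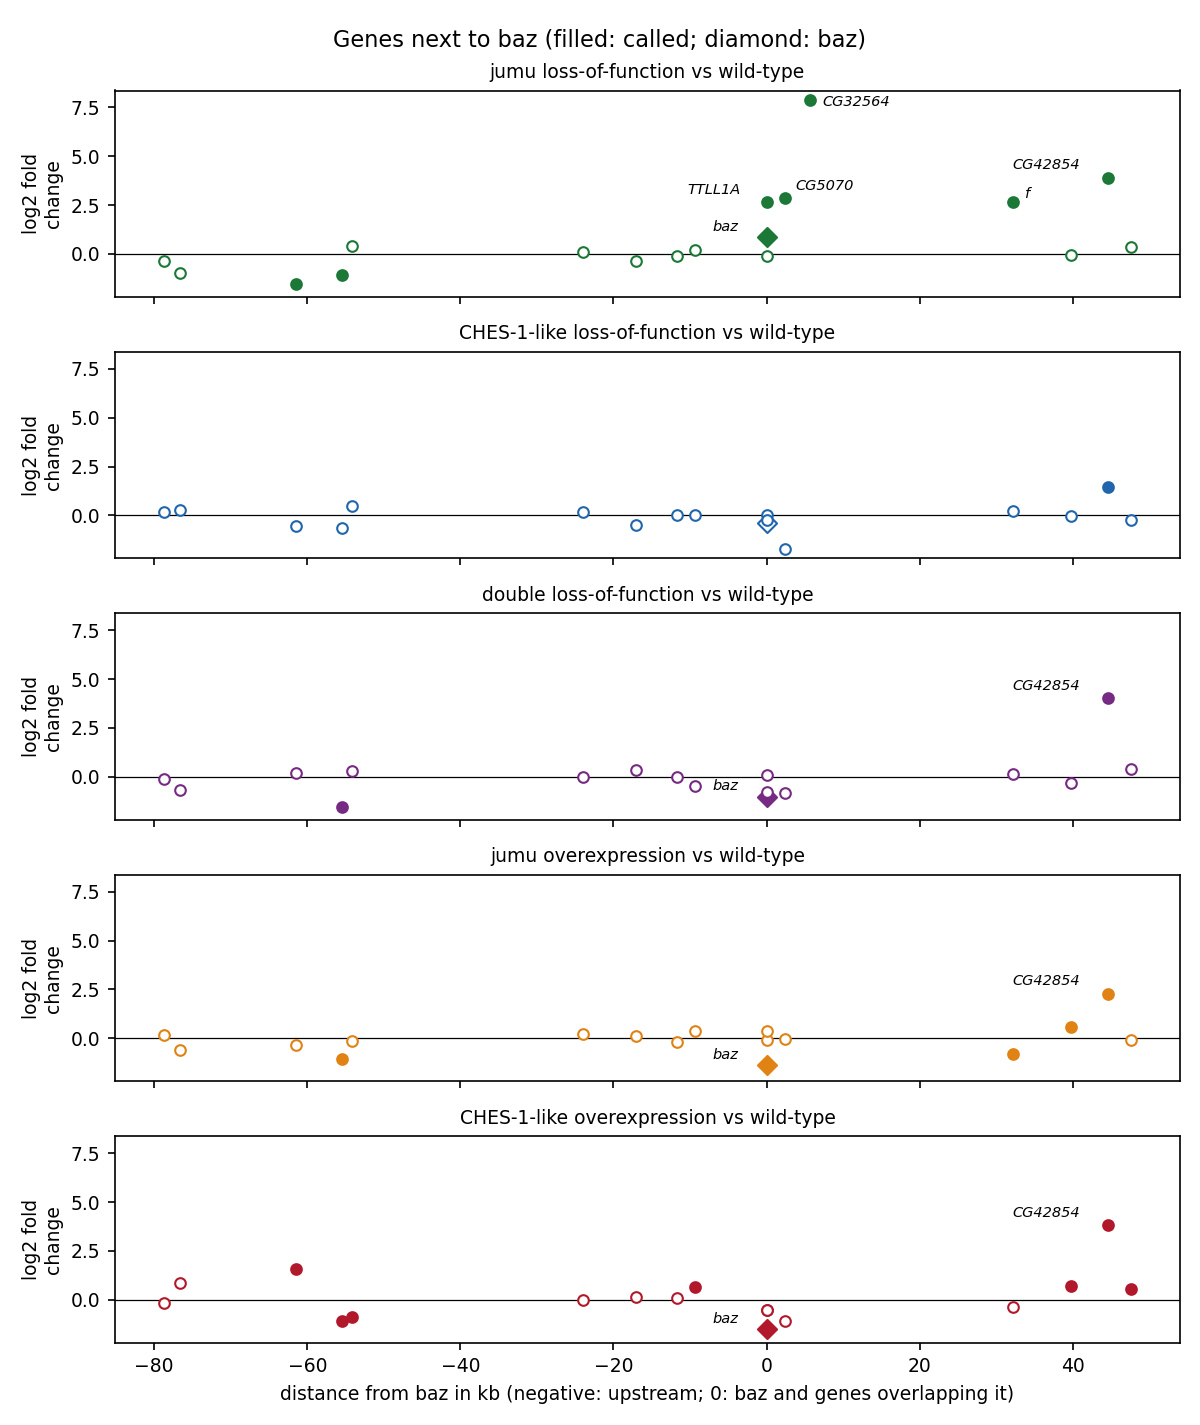
Log2 fold change against wild-type (y axis) of baz (diamond) and of the kept genes within 80 kb of it, by distance from baz in kb (x axis), for each of the 5 genotypes. Filled symbols were called. In the upper panel the genes just downstream of baz rise with it in jumu loss-of-function, and the fitted value of CG32564 rests on 0 to 3 counts in wild-type samples and is no measure of its size.

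The other components of the apical complex differed less. par-6, the adaptor that binds aPKC, lies on chromosome X, bases 17703352 to 17707096 (plus strand). Its group means lay between 37.5 CPM in double loss-of-function and 43.2 CPM in CHES-1-like loss-of-function, with 39.7 ± 2.43 CPM (n = 4, SD) in wild-type, every pair of neighbouring groups overlapped, and it was called in no comparison. aPKC, the kinase that drives determinants off the apical cortex, lies on chromosome 2R, bases 14944458 to 14962969 (minus strand), with 12 of its exon bases shared with CG10257. It was at 44.4, 43.2, 44.8 and 44.0 CPM in the wild-type samples and at 37.7, 34.0, 31.1 and 32.2 CPM under CHES-1-like overexpression, with no overlap. In CHES-1-like loss-of-function it was at 50.7, 53.3, 46.7 and 50.8 CPM, wholly above wild-type. Neither passed the fold criterion against wild-type, with log2 fold changes of −0.37 ± 0.072 (SE, edgeR FDR = 9.4e-04) and 0.21 ± 0.055 (SE, edgeR FDR = 0.007). Set directly against each other, CHES-1-like overexpression was lower than CHES-1-like loss-of-function, at −0.61 ± 0.081 (SE, edgeR FDR = 1.3e-05) for aPKC, and was called. With library totals the value was −0.10 and was not called, but all genes shifted with that scaling, as given with the processing. The kinase thus had its highest means, 50.3 and 50.4 CPM, under jumu overexpression and CHES-1-like loss-of-function, where baz was below wild-type.

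insc encodes the adaptor that ties Baz to Pins, and it lies on chromosome 2R, bases 20821262 to 20836028 (minus strand). It overlaps sktl on the same strand and shares 359 exon bases with it, 9.24% of its exon length, so its counts are uncertain to that extent. Its levels were 43.6, 44.0, 44.8 and 44.6 CPM in wild-type and 31.1, 32.8, 32.2 and 32.1 CPM in CHES-1-like loss-of-function. All samples of CHES-1-like loss-of-function lay below those of every other genotype. Of the 12 neural markers, 3 were called there, all lower, beside 15.4% of all genes in either direction. The median log2 fold change of the 12 was −0.29, beside −0.01 over all genes. In jumu loss-of-function insc was at 43.5, 44.3, 42.7 and 41.7 CPM, and in double loss-of-function at 46.0, 44.7, 46.9 and 46.8 CPM. The double loss overlapped wild-type rather than the single loss of CHES-1-like. Against wild-type the log2 fold change was −0.45 ± 0.055 (SE, edgeR FDR = 8.3e-07) in CHES-1-like loss-of-function, short of the fold criterion, and 0.07 ± 0.066 (SE, edgeR FDR = 0.52) in double loss-of-function. From CHES-1-like loss-of-function to the double loss insc rose by 0.53 ± 0.078 (SE, edgeR FDR = 4.6e-04), a call that was lost when double loss-of-function replicate 3 (0.49) or replicate 4 (0.49) was left out. In that comparison 3 of the 12 neural markers were called higher and 2 lower, beside 20.7% of all genes in either direction. The median of the 12 was 0.28, beside 0.04 over all genes, and the part of neural cells in the differences of insc was not tested. CHES-1-like overexpression had 36.9 ± 1.72 CPM (n = 4, SD), also wholly below wild-type (log2 fold change −0.24 ± 0.060 SE, edgeR FDR = 0.0052). As with baz, insc was below wild-type both without CHES-1-like and with more of it.

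pins, whose product binds Gαi at the cortex and Mud at the spindle, lies on chromosome 3R, bases 27582840 to 27586376 (plus strand). It was the steadiest member after par-6, with means from 104 ± 2.12 CPM (n = 4, SD) in wild-type to 126 ± 9.46 CPM (n = 4, SD) in double loss-of-function. The double loss samples, at 126, 139, 117 and 121 CPM, all lay above the wild-type samples, at 105, 105, 104 and 100.4 CPM, and the log2 fold change of 0.29 ± 0.075 (SE, edgeR FDR = 0.017) did not reach the fold criterion. pins was not called in any comparison.

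Among the determinants and their carrier, brat varied most and mira least between genotypes. brat, a translational repressor that limits growth of the daughter that receives it, lies on chromosome 2L, bases 19133816 to 19179758 (plus strand), with 151 exon bases shared with other genes. It was at 359, 340.1, 339.7 and 350.0 CPM in wild-type, at 504, 442, 424 and 450.0 CPM under jumu overexpression and at 318, 248, 229 and 239 CPM under CHES-1-like overexpression. The overexpression groups lay wholly above and wholly below wild-type, respectively. The log2 fold changes against wild-type, 0.40 ± 0.074 (SE, edgeR FDR = 0.0013) and −0.41 ± 0.10 (SE, edgeR FDR = 0.0051), did not reach the fold criterion. The shifts of endodermal and hemocyte markers in jumu overexpression, given with baz, hold for the same samples, and their part in the level of brat was not tested. Without CHES-1-like overexpression replicate 1, which was the highest of its group, the second of these was −0.55 and was called. In double loss-of-function brat was at 357, 559, 346 and 349.8 CPM, and the mean of the group was 403 ± 104 CPM (n = 4, SD), or 351 ± 5.25 CPM (n = 3, SD) without replicate 2.

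pros, the homeodomain factor that turns a daughter towards differentiation, lies on chromosome 3R, bases 11328480 to 11407627 (plus strand), 967 kb from jumu. It was at 57.8, 57.6, 57.0 and 56.0 CPM in wild-type and 49.1, 45.5, 45.0 and 45.9 CPM with the loss of CHES-1-like alone, and at 50.3, 39.0, 42.1 and 39.1 CPM in CHES-1-like overexpression. Both CHES-1-like genotypes lay below wild-type without overlap. The log2 fold changes were −0.28 ± 0.053 (SE, edgeR FDR = 2.8e-04) and −0.41 ± 0.082 (SE, edgeR FDR = 0.0013), and neither was called, while without CHES-1-like overexpression replicate 1 the second was −0.51 and was called. In jumu overexpression pros was at 65.3, 44.0, 43.7 and 44.5 CPM, with replicate 1 far above the other 3, which lay below all wild-type samples. Without that replicate the log2 fold change was −0.37, beside −0.20 with all 4 samples, and it was not called either way. From jumu loss-of-function to the double loss pros differed by −0.38 ± 0.11 (SE, edgeR FDR = 0.058) with all samples and was not called, and by −0.50, which was called, without double loss-of-function replicate 2.

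mira, the adaptor that carries Pros and Brat, lies on chromosome 3R, bases 19931799 to 19935120 (minus strand) within the span of Hs6st, with which it shares no exon base. It was at 95.4, 109.5, 105 and 103 CPM in wild-type, and the samples with the loss of jumu alone had 114, 120.1, 122 and 116 CPM, where every sample was higher than every wild-type sample. The log2 fold change of 0.20 ± 0.050 (SE, edgeR FDR = 0.0033) was small, and mira was called in no comparison. Within genotypes mira varied widely, with 107, 68.8, 115 and 114 CPM in double loss-of-function, 79.2, 93.7, 119.8 and 104 CPM in jumu overexpression and 76.6, 94.3, 109 and 105 CPM in CHES-1-like overexpression. In each of the 6 genotypes the sample with the least mira was also the sample with the highest neural marker sum and with the most pros and brat, and it was replicate 1 in 5 genotypes and replicate 2 in the double loss. Over the 24 samples, deviations from the genotype mean in log2 CPM correlated with those of the neural sum at r = −0.94 for mira, 0.98 for brat, 0.95 for baz, 0.85 for pros, 0.82 for spdo and 0.57 for numb, and the mesodermal marker sum itself correlated with the neural sum at 0.96. The correlations include double loss-of-function replicate 2, with a neural sum of 781 CPM beside 444 to 460 CPM in the rest of its group, and are not given without it. These are descriptions over samples that share libraries and scaling, and the part of this variation in the differences between genotypes was not tested.

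numb and spdo act on the Notch side of the division. numb, the Notch inhibitor inherited by a single daughter, lies on chromosome 2L, bases 9437469 to 9464184 (plus strand). It was at 53.1, 53.1, 52.7 and 53.2 CPM in wild-type. It was at 61.5, 57.8, 60.2 and 60.9 CPM in jumu loss-of-function and 40.1, 38.8, 36.3 and 35.7 CPM in CHES-1-like overexpression. The former lay wholly above wild-type and the latter wholly below every other genotype. The log2 fold changes against wild-type were 0.20 ± 0.045 (SE, edgeR FDR = 0.0017) and −0.47 ± 0.064 (SE, edgeR FDR = 3.8e-05), and neither reached the fold criterion. Without CHES-1-like overexpression replicate 1 the second was −0.53 and was called.

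spdo encodes the transmembrane protein that Numb removes from the cell surface, and it lies on chromosome 3R, bases 30476684 to 30478849 (plus strand) within the span of PH4alphaEFB, with which it shares no exon base. In contrast to numb, it had its highest mean under CHES-1-like overexpression, with 65.2, 56.5, 57.9 and 54.9 CPM against 45.5, 46.4, 48.6 and 44.9 CPM in wild-type and no overlap. In jumu loss-of-function it was at 58.9, 53.7, 52.0 and 55.3 CPM, also wholly above wild-type. The log2 fold changes were 0.36 ± 0.071 (SE, edgeR FDR = 0.001) and 0.26 ± 0.051 (SE, edgeR FDR = 3.4e-04), short of the fold criterion, and spdo was called in no comparison. Under CHES-1-like overexpression, then, numb lay below and spdo above wild-type in all 4 samples.

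**Figure D5:**
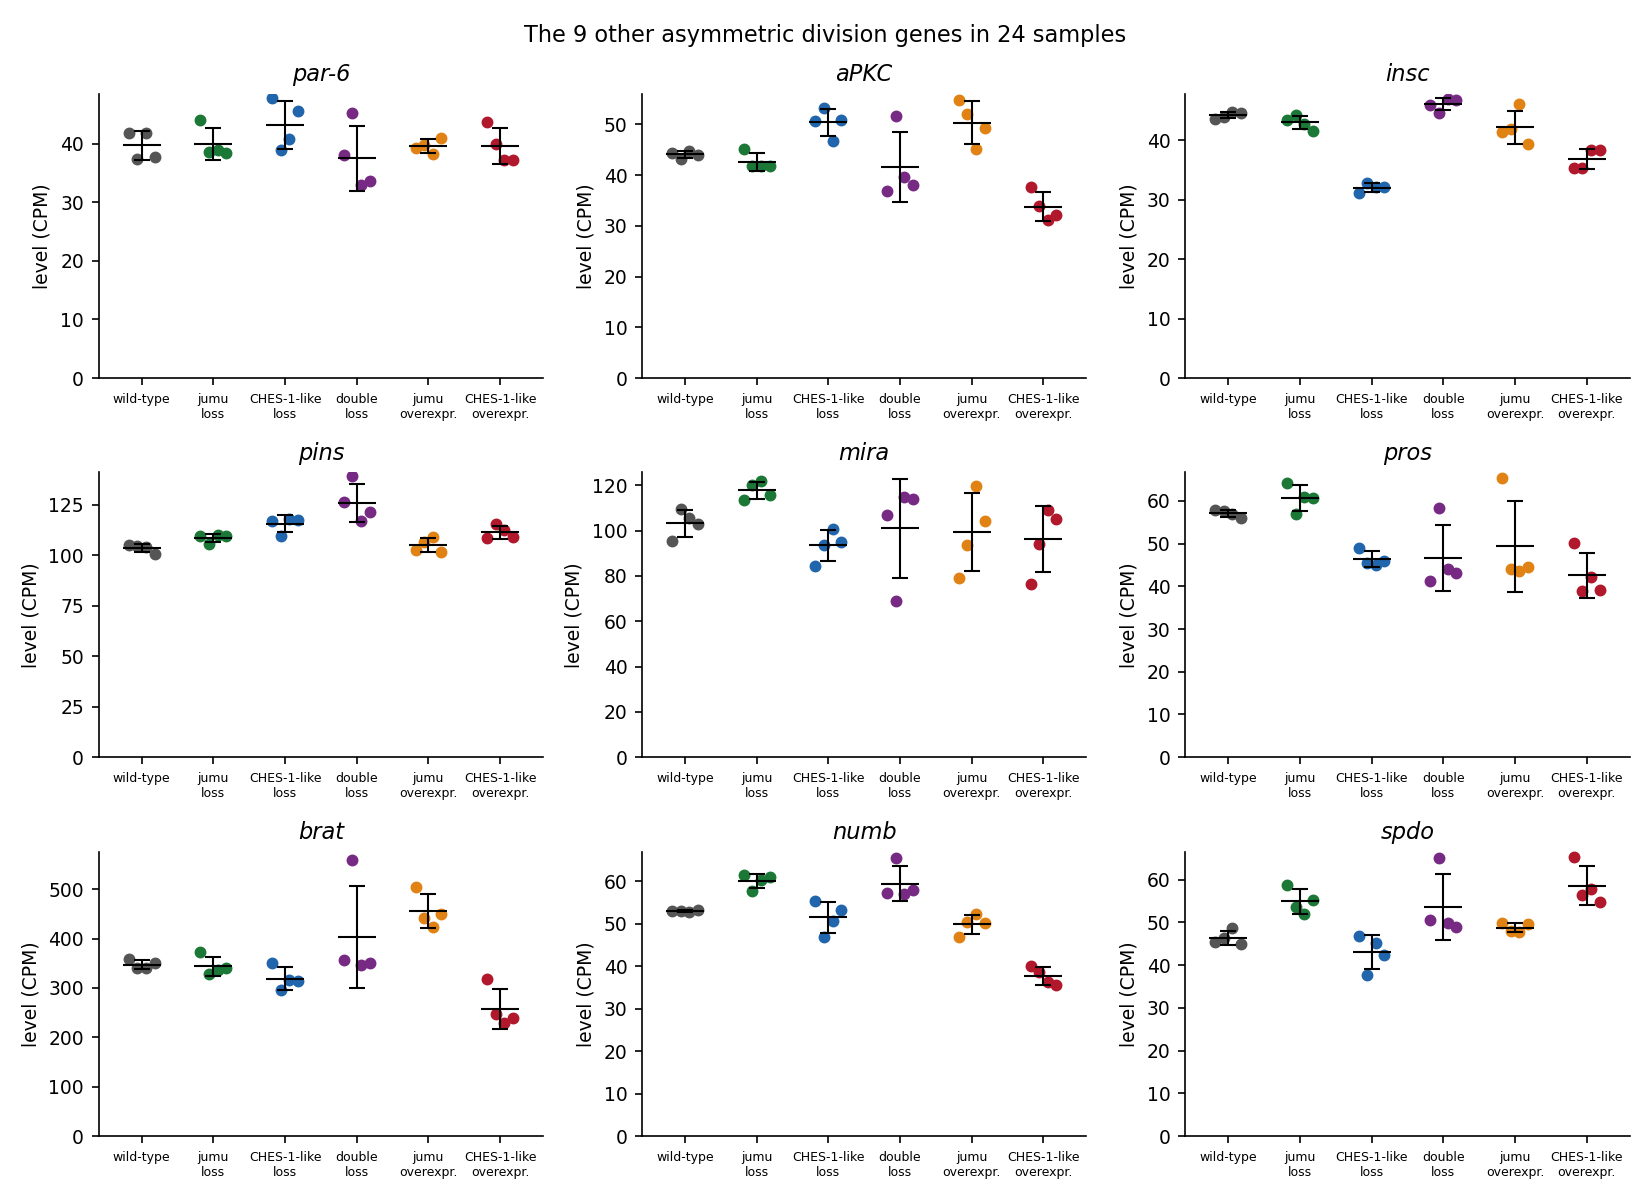
Levels in CPM (y axes, linear from 0) of the 9 members other than baz in each of the 24 samples by genotype (x axis), with the mean and the SD of 4 samples as bars. insc is lowest in CHES-1-like loss-of-function at 32.1 CPM, numb is lowest in CHES-1-like overexpression at 37.7 CPM, and in double loss-of-function replicate 2 is the highest of its group for brat and the lowest for mira.

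Compared per length, the wild-type levels of the members spanned a wide range. Divided by annotated exon length, the mean was 56.1 ± 1.71 (n = 4, SD) RPKM (CPM per kilobase of exon) for baz, 31.6 ± 0.647 (n = 4, SD) for pins, 31.1 ± 1.78 (n = 4, SD) for mira, 27.2 ± 0.727 (n = 4, SD) for brat, 22.2 ± 0.785 (n = 4, SD) for spdo, 13.1 ± 0.803 (n = 4, SD) for par-6, 11.4 ± 0.140 (n = 4, SD) for insc, 10.8 ± 0.0479 (n = 4, SD) for numb, 6.85 ± 0.103 (n = 4, SD) for aPKC and 2.29 ± 0.0328 (n = 4, SD) for pros. Of the apical complex, baz was therefore above par-6 and aPKC in wild-type in RPKM. In CHES-1-like overexpression the RPKM values were 19.6 ± 1.96 (n = 4, SD) for baz, 13.0 ± 1.01 (n = 4, SD) for par-6 and 5.25 ± 0.449 (n = 4, SD) for aPKC, so that the order stayed while the distance between baz and par-6 shrank. The exon lengths come from a later annotation than the one used for counting.

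Beyond the 10 members, 35 other genes of polarity, spindle orientation, mitotic kinases, adaptors and phosphatases, Notch signalling and Brat function were examined. In jumu loss-of-function 3 of the 35 were called, all lower, beside 19.4% of all genes in either direction. They were mud, the NuMA homologue that links Pins to the spindle (−1.06, edgeR FDR = 8.8e-14), pon, the adaptor that helps Numb to the cortex (−0.67, edgeR FDR = 6.6e-10), and the mitotic kinase Cdk1 (−0.54, edgeR FDR = 2.2e-08), all as log2 fold changes. The mean of mud was 157 ± 3.57 CPM (n = 4, SD) in wild-type against 74.5 ± 3.76 CPM (n = 4, SD) in jumu loss-of-function, and the ranges of the samples did not overlap. In jumu overexpression 0 of 35 were called by edgeR, beside 15.7% of all genes, and 0 by DESeq2. An unadjusted edgeR p under 0.05 was reached by 17. The share of all genes at that limit is not given, so this count is no result about the 35. The mean of mud was 199 ± 14.1 CPM (n = 4, SD) in that genotype. There, 1 gene, tws, was called when wild-type replicate 1 or jumu overexpression replicate 3 or 4 was left out. Against jumu loss-of-function, jumu overexpression was higher in 5 of the 35, beside 20.7% of all genes in either direction, led by mud (1.42) and Cdk1 (0.91), followed by aurA (0.58) and pon (0.58). Unlike baz, mud, pon and Cdk1 thus differed from wild-type in the direction of the jumu level in jumu loss-of-function.

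In CHES-1-like loss-of-function 1 of the 35 was called, beside 15.4% of all genes. It was nos, the translational repressor that works with Brat and Pum, at 1.41 ± 0.362 CPM (n = 4, SD) in wild-type and 2.16 ± 0.524 CPM (n = 4, SD) there, and it lost the call when CHES-1-like loss-of-function replicate 4 or wild-type replicate 4 was left out. In double loss-of-function 1 of the 35 was higher and 4 were lower, beside 24.7% of all genes: mud (−1.34, edgeR FDR = 1.6e-07), cno, a Pins partner at the cortex (−0.76, edgeR FDR = 9.0e-05), and the phosphatase subunit Pp4-19C (−0.73, edgeR FDR = 0.0089) fell, and Ggamma1 (0.74, edgeR FDR = 0.046) rose. Ggamma1 lost its call without double loss-of-function replicate 2, at 0.35, and also without wild-type replicate 2, 3 or 4, and without wild-type replicate 3 the count of the 35 was 3 rather than 5. Set against the loss of CHES-1-like alone, the double loss was lower in 5 of the 35, beside 20.7%, among them mud (−1.32), nos (−0.90, lost without CHES-1-like loss-of-function replicate 4), cno (−0.83, but 0.03 with library totals) and Pp4-19C (−0.64, but 0.24 with library totals). Against jumu loss-of-function it was lower in 1 of the 35, cno (−0.64, edgeR FDR = 0.0015), beside 9.42%. The interaction was called for 3 of the 35, beside 12.2%: cno (−0.72) and scrib (−0.59), which were lower than the sum of the single losses but 0.32 and 0.46 with library totals, and pon (0.60), which was higher and lost its call without double loss-of-function replicate 2, at 0.47. Library totals shifted the median of all genes upward in the interaction and in double against CHES-1-like loss-of-function, as given with baz.

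CHES-1-like overexpression had the most calls among the 35 of the comparisons with wild-type, with 2 called higher and 12 lower, beside 33.1% of all genes. The strongest were Galphao, a trimeric G protein subunit (log2 fold change 1.31, edgeR FDR = 3.8e-06), which rose, and mud (−1.24, edgeR FDR = 7.6e-09), the basolateral polarity gene scrib (−0.96, edgeR FDR = 6.0e-08) and pum, the partner of Brat (−0.93, edgeR FDR = 6.5e-07), which fell. The median over the 35 was −0.20 on the log2 scale, beside 0.01 over all genes kept. Against CHES-1-like loss-of-function 3 of the 35 were higher and 16 lower, beside 40.7%, with scrib at −1.29, mud at −1.27, pum at −1.24 and nos at −1.20. In the same samples the summed epithelial markers had a mean of 423 CPM, beside 621 CPM in wild-type, with 4 of the 7 called lower, of the 12 neural markers 3 were called lower and 1 higher, of the 5 hemocyte markers 3 were called lower, and of the 3 endodermal markers 1 was called lower. Against wild-type, 33.1% of all genes were called there. The part of the marked cell types in the differences of the division genes was not tested. The ranges of mud, in CPM, were 152–159 in wild-type, 71.5–80.0 in jumu loss-of-function, 151–163 in CHES-1-like loss-of-function, 59.9–66.5 in double loss-of-function, 184–215 in jumu overexpression and 63.0–70.4 in CHES-1-like overexpression, and mud was thus low in 3 genotypes, of which jumu loss-of-function was high in baz and the others low.

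For each member the genes most like it over the 24 samples were found by Pearson's r of log2 CPM, as a description over samples that share their libraries. For baz these were wnd, a kinase of the MAP kinase pathway (r = 0.91), and 5-HT1A, a serotonin receptor (r = 0.90). For numb they were caup, a homeodomain factor of the Iroquois complex (r = 0.96), and pxb (r = 0.95), for aPKC Drep2 (0.96) and Dek (0.94), and for brat CG32369 (0.95) and the EGF receptor ligand spi (0.95). For pros they were the cell surface genes Dscam1 (0.92) and Ten-m (0.90), for insc CG6479 (0.89) and IA-2 (0.87), and for spdo NAA20 (0.91) and mbf1 (0.90). The values were lowest for par-6, with a snoRNA (0.80) and Rap2l (0.80), and for mira (CG17027, 0.89, and CG3500, 0.89) and pins (Hsc70Cb, 0.87, and CR45625, 0.87) they were in between. No member was among the 2 genes most like another. Over the 9 pairs with baz the median r was 0.22, from −0.20 to 0.74, and over the 36 pairs without baz it was 0.13, from −0.60 to 0.72, so that the 10 genes did not vary as a single group.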

How the data were processed

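Total RNA of sorted GFP-positive cells was sequenced as stranded libraries. The deposited values are whole counts of reads per gene, which the authors made by aligning reads to the genome with TopHat2 at default settings and counting them on the Release 6 gene annotation, and the submitters' processing notes also name SAMtools and HTSeq. Whether the counting used the strand is not given in the sources used here. Total counts per sample and the CPM that 3 counts represent are given with the results, and more deeply sequenced samples have the smaller counting error. Each group is the genotype named in the labels.

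Each fit took in the genes that had 1 or more counts in its samples, with edgeR 4.0.16 (R 4.3.3, TMM factors, quasi-likelihood F test) and Benjamini-Hochberg correction, and the 30% with the lowest mean expression were then excluded. A gene was called at an FDR below 0.1 and an absolute log2 fold change above 0.5, the relaxed criteria of the study. Each comparison of 2 genotypes used their 8 samples, the interaction 16 and the test of any difference 24. Levels are CPM over all 24 samples (prior count 2 on the log2 scale), and RPKM were computed from annotated exon lengths of a later Release 6 annotation, which matched 17199 of the 17476 gene identifiers and also gave positions. None of the 36 pairs of replicates agreed within sampling noise. The fits were tested on simulated counts.

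All 10 members are described whatever their result. Of the 35 other genes, called ones may be named, at most the 4 with the largest change in a comparison, and for each member the 2 genes most like it by Pearson's r are named. The members and lists were chosen with earlier results of these data known, and the neighbours of baz after its values were seen. Alternatives were RLE factors, library totals, DESeq2 1.42.0, no expression filter, an FDR below 0.05, a log2 limit of 1, a joint fit of all 24 samples, a replicate block, omission of each sample and, chosen after seeing the data, totals without ribosomal RNA genes.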

Additional observations from a re-analysis of the deposited data

Results flagged for a closer look

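Within groups of 4, the sample farthest from the others was set against the range of its group, by a limit that chance alone would pass in about 1 of 20 groups, or 3.3 of the 66 groups tested. It was passed in 10, but the groups share the same 24 libraries and are not independent, so 10 cannot be weighed against 3.3. In double loss-of-function, replicate 2 stood apart for 5 members: baz at 8.53 against 8.08 to 8.15, mira at 6.11 against 6.74 to 6.84, brat at 9.13 against 8.44 to 8.48, numb at 6.03 against 5.83 to 5.86 and spdo at 6.03 against 5.61 to 5.66, all in log2 CPM. It was below its group for mira and above it for the others. In jumu loss-of-function, replicate 1 was above its group for par-6, at 5.46 against 5.27 to 5.28, and for aPKC, at 5.50 against 5.38 to 5.39, in log2 CPM. For pins, CHES-1-like loss-of-function replicate 2 was below its group, at 6.77 against 6.87 to 6.88, and for pros, jumu overexpression replicate 1 was above it, at 6.03 against 5.45 to 5.48, both in log2 CPM. In jumu overexpression, replicate 4 had the largest total count, 67831491, while the other 3 samples had 24128278 to 28799675.

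For baz and for insc, the difference between genotypes with and without one deficiency changed with the presence of the other deficiency. On the log2 scale the interaction was −1.48 for baz (edgeR FDR = 4.8e-08) and 0.54 for insc (edgeR FDR = 7.4e-05), over 16 samples. With library totals the value of baz fell short of the fold criterion. Whether the X chromosomes of the strains, on which baz lies, have a part in its value was not tested. For baz, the loss of CHES-1-like gave −0.39 in cells without the jumu deficiency and −1.87 in cells with it, all samples lying on the same side in both. For insc it gave −0.45 in cells without the jumu deficiency and 0.10 in cells with it (edgeR FDR = 0.45).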

How the results depend on the processing

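For the members, 2100 values were computed under the alternatives, and 1958 kept their direction and their side of the criteria, or moved little where the value was not called. Apart from library totals and left-out samples, 750 of 760 did so and 10 lost a call. Among these alternatives, no expression filter, an FDR below 0.05 and a log2 limit of 1 leave every fold change as it was. They could therefore not change a direction, and the stricter limits could only remove calls. With RLE factors, DESeq2, no expression filter, an FDR below 0.05 or 1 fit of all samples the counts of called members were within 1.5 times those reported. With a log2 limit of 1, the count was 0 in jumu loss-of-function, 0 in double against CHES-1-like loss-of-function, 1 in CHES-1-like overexpression against CHES-1-like loss-of-function, 1 for the interaction and 1 for any difference. With each sample left out in turn, it ranged from 1 to 4 in CHES-1-like overexpression (4 without its replicate 1), from 1 to 2 in double against jumu loss-of-function (2 without double loss-of-function replicate 2) and from 1 to 2 in double against CHES-1-like loss-of-function (1 without double loss-of-function replicate 3 or 4). The shares of all genes called in the fits without a sample are not given.

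With library totals, the members called were 7 in CHES-1-like loss-of-function, 4 in double loss-of-function, 2 in CHES-1-like overexpression, 4 and 9 in the double loss against that of jumu and of CHES-1-like, 2 and 4 in overexpression against loss of jumu and of CHES-1-like, 9 for the interaction and 10 for any difference. With totals without ribosomal RNA genes they were 4, 2, 2, 4, 7, 2, unchanged at 2, 10 and 6 in the same order. All genes shifted with that scaling, and so did the share of calls that were higher: 40.4% became 4.07% with the loss of CHES-1-like, 50.7% became 31.3% with that of jumu, 48.2% became 81.7% with both, 39.8% became 94.8% and 56.9% became 96.8% for the double loss against that of jumu and of CHES-1-like, 53.9% became 76.0% and 51.6% became 86.5% for overexpression against loss, and 49.1% became 98.3% for the interaction. The calls over all genes rose from 1887 to 6535 with the loss of CHES-1-like, from 1152 to 5644 and from 2529 to 9356 for the double loss against each single loss, and from 1496 to 9755 for the interaction. For the other comparisons, and for totals without ribosomal RNA genes, the calls over all genes are not given. The counts of members there are thus not set against all genes and are no result about the members. In double against CHES-1-like loss-of-function the sign turned with library totals for baz (0.24), par-6 (0.63), aPKC (0.57), cno (0.026) and Pp4-19C (0.24), and without ribosomal RNA genes for baz (0.016) and Pp4-19C (0.012). In the interaction it turned for par-6 (0.78), aPKC (0.79), mira (0.98), pros (0.93), numb (1.04), cno (0.32) and scrib (0.46), and without ribosomal RNA genes these were 0.52, 0.52, 0.71, 0.67, 0.77, 0.056 and 0.19.

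The replicate numbers are not said to pair samples across genotypes. Same-numbered samples deviated together more often than differently numbered ones, though not in every pair (median r 0.0588, over 0.1 in 22 of 60 pairs, beside −0.0200 and 22 of 180 for different numbers). With the replicate number as a block the counts of called members were those reported in all 11 results, 1 in jumu, 0 in CHES-1-like and 1 in double loss-of-function, and the block changed no call of a member. Depth limits the lowest genes named, nos and the neighbours of baz. The causes of these shifts were not tested.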
